A study of Mus musculus with 5 samples.

Results

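The 10 genes described here are the Wnt signals of liver endothelium and the β-catenin target genes of hepatocytes near the central vein. They were found by symbol in the table of FPKM (fragments scaled to transcript length and to the mapped fragments of the library), where each of them had 1 row among 33589. Wnt2, Wnt9b and Rspo3 encode secreted ligands, Lgr5, Rnf43 and Znrf3 encode membrane proteins that set the sensitivity of a cell to them, and Axin2, Notum, Nkd1 and Tbx3 are targets, most of them feedback inhibitors. The data are RNA-seq values of mouse liver from 5 libraries. The 2 control livers had the genotype Hegfl/fl, with floxed alleles of Heg1 and no Cre named in the label. The 3 livers labelled knockout had the genotype Lyve1-Cre;Hegfl/fl, and are called knockouts here by that label. Every liver came from males of 6 weeks put on a high-fat diet for 4 weeks, so the comparison holds no liver on another diet. Lyve1, which drives the Cre, is known as a gene of lymphatic and liver sinusoidal endothelium, and neither the floxed exons nor the completeness of deletion is given. The series title speaks of hepatocytes and the labels of liver. Alb, which marks hepatocytes, stood between 37676 and 51017 FPKM, and Stab2, which marks sinusoidal endothelium, between 12.05 and 14.24 FPKM, so both cell types were represented.

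In the liver, endothelial cells of the central vein and the adjoining sinusoids release WNT2, WNT9B and R-spondin 3. The Wnt proteins bind Frizzled and LRP receptors on neighbouring hepatocytes, which stabilizes β-catenin and switches on targets of the TCF factors, among them the pericentral enzymes of glutamine synthesis and drug metabolism. RNF43 and ZNRF3 are ubiquitin ligases that remove Frizzled from the surface, and R-spondins, held by LGR receptors, take these ligases away and so amplify the signal. AXIN2 is a scaffold of the complex that degrades β-catenin, NOTUM is a secreted enzyme that inactivates Wnt proteins by removing their lipid, and NKD1 binds Dishevelled. TBX3 is a T-box transcription factor that β-catenin activates in liver. In whole-liver RNA, fewer cells of a type and less RNA per cell cannot be told apart.

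Promoter sequences were held for 5 of the 10 genes (Wnt2, Wnt9b, Rnf43, Axin2 and Nkd1, RefSeq, GRCm38.p6), and those of Rspo3, Lgr5, Znrf3, Notum and Tbx3 were not analysed here. The stretches before the start of Axin2 and before the inner of the starts of Rnf43 are shown because both genes stood highest in the same library, as described below, while their promoters differ in composition. Axin2 starts on the plus strand of chromosome 11, and the printed bases are chr11:108920229-108920348. For Rnf43 they are chr11:87699777-87699896 on the plus strand. Each run is 120 bases, 5′ to 3′, ends at the base before the start and overlaps no annotated exon. Capitals mark CG pairs.
Axin2: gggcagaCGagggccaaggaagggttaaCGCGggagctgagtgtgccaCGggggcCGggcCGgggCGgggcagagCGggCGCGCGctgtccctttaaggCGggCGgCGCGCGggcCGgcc
Rnf43: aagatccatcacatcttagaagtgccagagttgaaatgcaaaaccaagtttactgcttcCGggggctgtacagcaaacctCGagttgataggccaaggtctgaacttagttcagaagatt

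The Axin2 run held 17 CG pairs and 78.3% G and C, and the Rnf43 run 2 CG pairs and 44.2%, against a median of 3 CG pairs over all promoters in the table. The core of the TCF motif, CTTTGA on either strand, was searched in the 300 bases from 250 before to 50 after each start. It was found in 0 of the 6 windows of the 5 genes and in 16.0% of the 32851 windows of the table. That says only that these letters are not in these windows.

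The FPKM of each library summed to between 797692 and 820498, and 10614 to 10945 genes reached 1 FPKM. FPKM carry no read totals, so depth is unknown and no counting interval is given. The targeted gene Heg1 stood at 0.48 and 0.35 FPKM in the control livers against 0.45, 0.43 and 0.50 FPKM in the knockout livers. It was thus not lower in the knockouts. Which liver cells gave this value was not tested, and it does not settle how far the deletion went. Lyve1 had 7.34 and 8.92 FPKM for the controls, against 3.90, 7.32 and 10.49 FPKM for the knockouts. Knockout 1 stood apart by its erythroid transcripts, which summed to 1329 FPKM over 7 genes, against 136 to 244 FPKM in each of the other 4 libraries. Across the 14401 genes tested, 0% passed limma's adjusted p below 0.05 in either direction, the smallest adjusted p being 0.597. At an unadjusted p below 0.05, limma gave 698 genes higher (4.85%) and 254 lower (1.76%) in knockouts. With median-of-ratios scaling these counts were 423 and 425, and with quantile normalization 371 and 415, so the excess of higher genes depended on scaling.

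None of the 10 genes passed the test across all genes, with limma adjusted p between 0.739 and 0.993. All 10 were tested, and 1 of them, Lgr5, had an unadjusted p below 0.05. The fitted difference, which is knockout minus control of mean log2(FPKM + 0.1), was above 0 for 8 genes, where 63.4% of all genes tested were above 0. Its median over the 10 genes was 0.27, against 0.079 over all genes tested. For Rspo3, Lgr5 and Znrf3 all 3 knockouts lay above both controls, and for no gene did all knockouts lie below both controls. Over all genes tested the groups did not overlap in 17.8% on the higher and 6.23% on the lower side. The number of genes above 0 was 4 of 10 without knockout 1. Rnf43, Axin2, Tbx3 and Notum then joined Wnt2 and Wnt9b below 0. Groups that are apart stay apart when a library is left out, so Rspo3, Lgr5 and Znrf3 could not come to overlap there. After quantile normalization Rspo3 and Znrf3 overlapped between groups and Lgr5 did not.

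**Figure D1:**
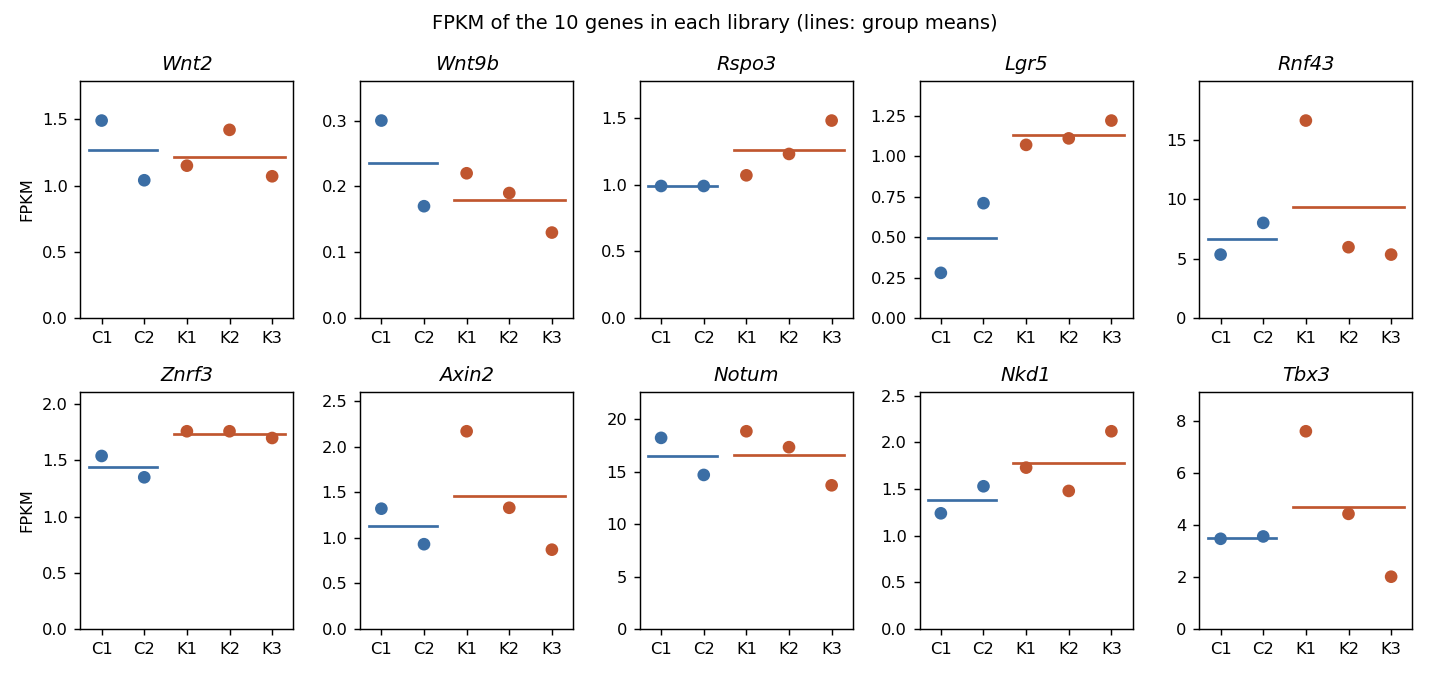
FPKM (vertical axis, from 0, a scale of its own in each panel) of the 10 genes in control libraries C1 and C2 (blue) and knockout libraries K1 to K3 (orange), with lines at the group means. The groups are apart for Rspo3, Lgr5 and Znrf3, and a single knockout, K1, stands out for Rnf43, Axin2 and Tbx3.

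The endothelial ligands were of low abundance. Wnt2, on chromosome 6 (17988940 to 18030585, minus strand, in the mm10 build), had 1.49 and 1.04 FPKM in the control livers against 1.15, 1.42 and 1.07 FPKM in the knockout livers. The controls alone spanned the range of all 5 livers, and the difference was -0.045 (SE 0.26, 95% interval -0.66 to 0.57, limma adjusted p = 0.979). Wnt9b, on chromosome 11 (103727364 to 103749821, minus strand), was the least abundant gene, with 0.30 and 0.17 FPKM for the controls, against 0.22, 0.19 and 0.13 FPKM for the knockouts. Control 1 was highest, control 2 lay among the knockouts, and the difference was -0.24 (SE 0.42, 95% interval -1.25 to 0.76, limma adjusted p = 0.908). The interval of Wnt9b was the wider of both Wnt genes and holds large differences in either direction.

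Rspo3, on chromosome 10 (29452416 to 29535867, minus strand), went the other way. It had 0.99 FPKM in either control, against 1.07, 1.23 and 1.48 FPKM in the knockout livers. The lowest knockout exceeded the controls by less than the knockouts differed among themselves. The group means were 0.99 and 1.26 ± 0.21 FPKM (SD, n = 3), and the difference was 0.31 (SE 0.24, 95% interval -0.26 to 0.87, limma adjusted p = 0.815). Of its 3090 exonic bases 404 are shared with an antisense gene, Gm48159, and no source used here says if reads were counted by strand.

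To compare the ligands with an endothelial marker level, each was also set against the geometric mean FPKM of 20 sinusoidal endothelial markers. That mean was 9.76 and 9.15 for the controls, against 10.86, 8.79 and 9.64 for the knockouts. Other cell sources of the ligands were not tested, so the ratios account for endothelial markers only. Wnt2 then gave ratios of 0.153 and 0.114 for the controls, against 0.106, 0.162 and 0.111 for the knockouts. The ratio of Wnt9b was 0.0308 and 0.0186 for the controls, against 0.0203, 0.0216 and 0.0135 for the knockouts. For both the groups overlapped, as they had before. The ratio of Rspo3 was 0.102 and 0.108 for the controls, against 0.0985, 0.140 and 0.154 for the knockouts. Per sinusoidal marker level Rspo3 therefore overlapped between groups, with knockout 1 the lowest of the 5 livers. Against 7 central vein markers, a denominator that was not planned, the groups also overlapped for all 3 ligands. Knockout over control of the mean ratios was then 0.84 for Wnt2, 0.66 for Wnt9b and 1.1 for Rspo3. With sinusoidal markers it was 0.95, 0.75 and 1.25. Knockout 1 had the highest value for 13 of the 20 sinusoidal markers, where 23.5% of all genes tested were highest in it.

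**Figure D2:**
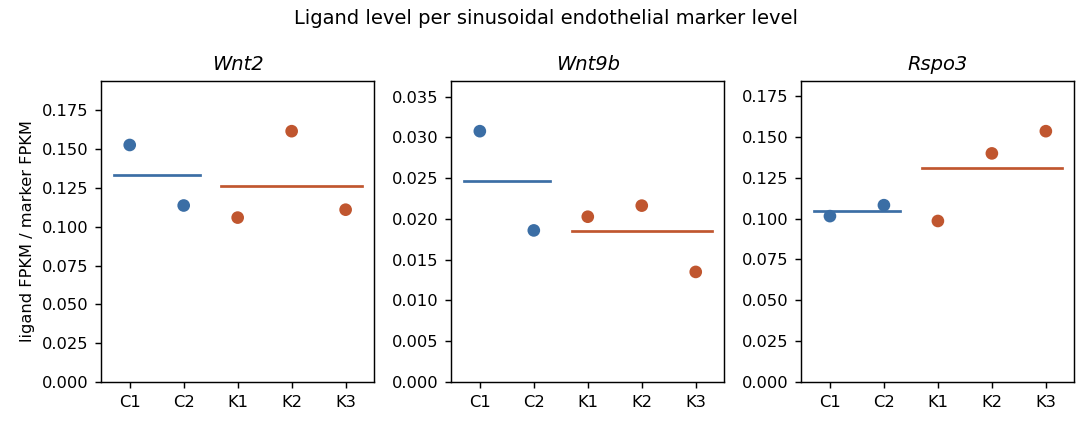
Ratio of ligand FPKM to the geometric mean FPKM of 20 sinusoidal endothelial markers (vertical axes from 0), for control (C1, C2, blue) and knockout (K1 to K3, orange) libraries, with lines at group means. The groups overlap for all 3 ligands, and for Rspo3 the knockouts range from 0.0985 to 0.154 around the controls at 0.102 and 0.108.

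Among the receptor genes Lgr5 differed most. Lgr5 (chromosome 10, 115450311 to 115587780, minus strand) had 0.28 and 0.71 FPKM in the control livers against 1.07, 1.11 and 1.22 FPKM in the knockout livers. The knockouts lay close together, at 1.13 ± 0.078 FPKM (SD, n = 3), and all were above the higher control, while the controls differed 2.54-fold from each other. The ratio of group means was 2.29 and the difference 1.15 (SE 0.37, 95% interval 0.27 to 2.03, unadjusted p = 0.0181 and limma adjusted p = 0.739). An exact two-sided permutation test over the 5 libraries gave p = 0.1, the smallest that this design allows. The size rested on control 1, the difference being 0.61 without control 1 and 1.70 without control 2. It also fell with the pseudocount, to 0.53 at a pseudocount of 1.

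The 2 ligase genes that R-spondins act on did not share a pattern. Znrf3 (chromosome 11, 5276324 to 5444847, minus strand) was at 1.54 and 1.35 FPKM for the controls, against 1.76, 1.76 and 1.70 FPKM for the knockouts. The knockouts were within 1.04-fold of each other and above both controls, and the difference was 0.25 (SE 0.19, 95% interval -0.20 to 0.71, limma adjusted p = 0.813). Rnf43 (chromosome 11, 87662722 to 87735539, plus strand) was at 5.34 and 8.0 FPKM in the control livers against 16.59, 5.96 and 5.34 FPKM in the knockout livers. Knockout 1 was more than 2-fold above every other liver, whereas knockout 3 equalled the lower control. The difference of 0.30 (SE 0.49, 95% interval -0.87 to 1.48, limma adjusted p = 0.905) rested on knockout 1, without which it was -0.21.

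The feedback inhibitors downstream were spread more widely within the knockouts than between the groups. Axin2 (chromosome 11, 108920349 to 108950783, plus strand), often used as a readout of Wnt signalling, had 1.32 and 0.93 FPKM for the controls, against 2.17, 1.33 and 0.87 FPKM for the knockouts. Knockouts 1 and 3 were the highest and the lowest of the 5 livers, 2.49-fold apart, and the difference was 0.28 (SE 0.39, 95% interval -0.66 to 1.21, limma adjusted p = 0.892) with all livers and -0.038 without knockout 1. Notum (chromosome 11, 120653788 to 120661175, minus strand) was the most abundant of the 10 genes, with 18.24 and 14.70 FPKM in the control livers against 18.87, 17.35 and 13.71 FPKM in the knockout livers. Its group means, 16.5 ± 2.50 (SD, n = 2) and 16.6 ± 2.65 FPKM (SD, n = 3), differed by less than either SD, and the interval of the difference ran from -0.41 to 0.43 (estimate 0.011, limma adjusted p = 0.993). The sign of the Notum difference was negative under both other scalings. Exons of antisense genes cover 918 of the 2408 exonic bases of Notum, and if strand was not used their reads cannot be told apart. Nkd1 (chromosome 8, 88521354 to 88594884, plus strand) had 1.24 and 1.53 FPKM for the controls, against 1.73, 1.48 and 2.12 FPKM for the knockouts. Knockout 2 lay between the controls and the other knockouts above them, with a difference of 0.33 (SE 0.23, 95% interval -0.23 to 0.89, limma adjusted p = 0.810).

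Tbx3 (chromosome 5, 119670669 to 119684724, plus strand) had the widest spread within the knockouts. It stood at 3.47 and 3.56 FPKM in the controls, which were nearly equal, against 7.61, 4.43 and 2.01 FPKM in the knockout livers. These lie on either side of the controls and are 3.79-fold apart, so the difference of 0.21 (SE 0.50, 95% interval -0.98 to 1.41, limma adjusted p = 0.938) has no stable sign, and it was -0.23 without knockout 1. The antisense gene Tbx3os1, whose exons overlap it in part, had 3.41 and 2.84 FPKM in the control livers against 3.19, 5.11 and 3.15 FPKM in the knockout livers, an order different from that of Tbx3.

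**Figure D3:**
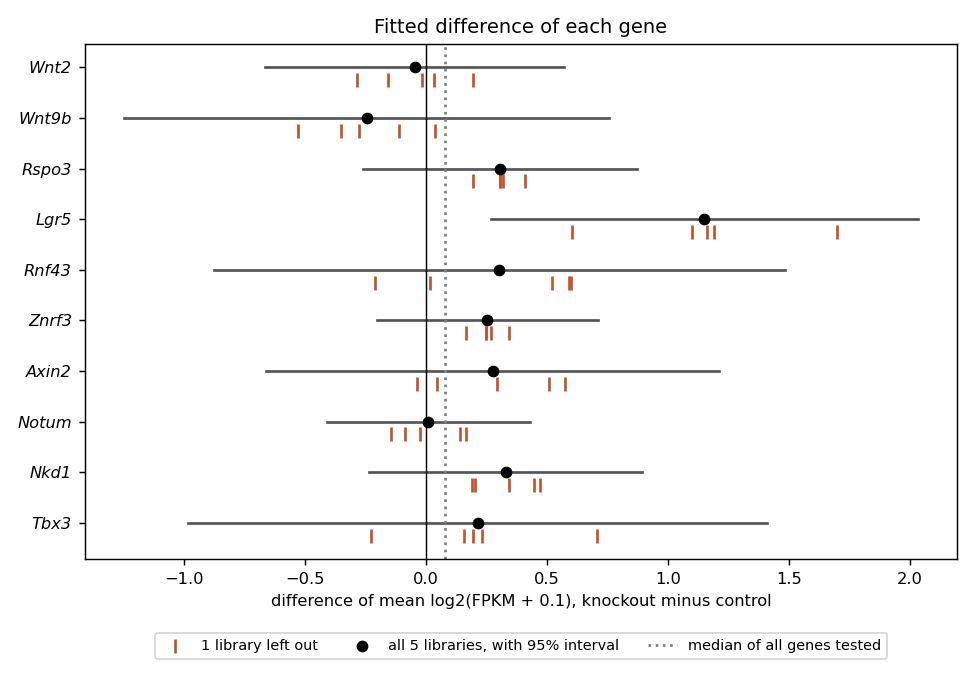
Fitted difference (horizontal axis, mean log2(FPKM + 0.1), knockout minus control) of each gene, with its 95% interval (line) and the estimates with 1 library left out (orange ticks); the dotted line is the median of all genes tested, 0.079. The Lgr5 interval, 0.27 to 2.03, is the only 1 of the 10 that lies off 0, and the ticks of 6 genes (Wnt2, Wnt9b, Rnf43, Axin2, Notum and Tbx3) fall on both sides of it.

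Ordered by FPKM, which is a level per transcript length, the 10 genes ran from Notum (mean of 5 libraries 16.6 FPKM) through Rnf43 (8.25), Tbx3 (4.22), Znrf3 (1.62), Nkd1 (1.62), Axin2 (1.32), Wnt2 (1.23), Rspo3 (1.15) and Lgr5 (0.878) to Wnt9b (0.202). Notum was above Rnf43, and Rnf43 above Tbx3, in 5 of 5 libraries, although in each of these pairs the ranges overlapped. Axin2 was above Wnt2 only in knockout 1, so in 4 of 5 libraries their order was the reverse of that of their means. The lowest Tbx3 value exceeded the highest of Znrf3. From Znrf3 down, each gene overlapped the next in its range. Overlap of neighbours thus set no bound among the genes from Znrf3 to Wnt9b, and only Tbx3 and Znrf3 were neighbours without overlap.

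Knockout 1 was looked at further after these values were seen. It had the highest value, ties included, for 5 of the 10 genes (Rnf43, Znrf3, Axin2, Notum and Tbx3), none of them a ligand, where 23.5% of all genes tested were highest in it. For 3 of the 10, Rnf43, Tbx3 and Axin2, it was at least 1.5-fold above each other library (2.07-fold, 1.72-fold and 1.63-fold above the next), where 2.57% of all genes tested were. Sp5, a Wnt target that encodes a transcription factor, was also highest in knockout 1 and lowest among the knockouts in knockout 3, with 0.60 and 0.37 FPKM for the controls, against 1.33, 0.63 and 0.44 FPKM for the knockouts. Rhbg, a pericentral ammonium transporter, had 2.34 and 2.72 FPKM in the control livers against 4.60, 3.22 and 1.89 FPKM in the knockout livers. These were chosen for their order, and the lists they come from did not share it: 3 of 8 general Wnt targets and 6 of 20 pericentral genes were highest in knockout 1, while Myc and Cd44 were at their lowest there. Knockout 3 had the lowest value, ties included, for 5 of the 10 genes (Wnt9b, Rnf43, Axin2, Notum and Tbx3), where 14.8% of all genes tested were lowest in it. It had the highest value for 3 others, Rspo3, Lgr5 and Nkd1, where 25.9% of all genes tested were highest in it. Beside these, knockout 1 had the highest erythroid sum and the highest value for 4 of 5 tested cholangiocyte markers, such as Krt19 with 2.11 FPKM against 0.72 to 1.87 FPKM in the other livers. The part of other cell types in these values was not tested.

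**Figure D4:**
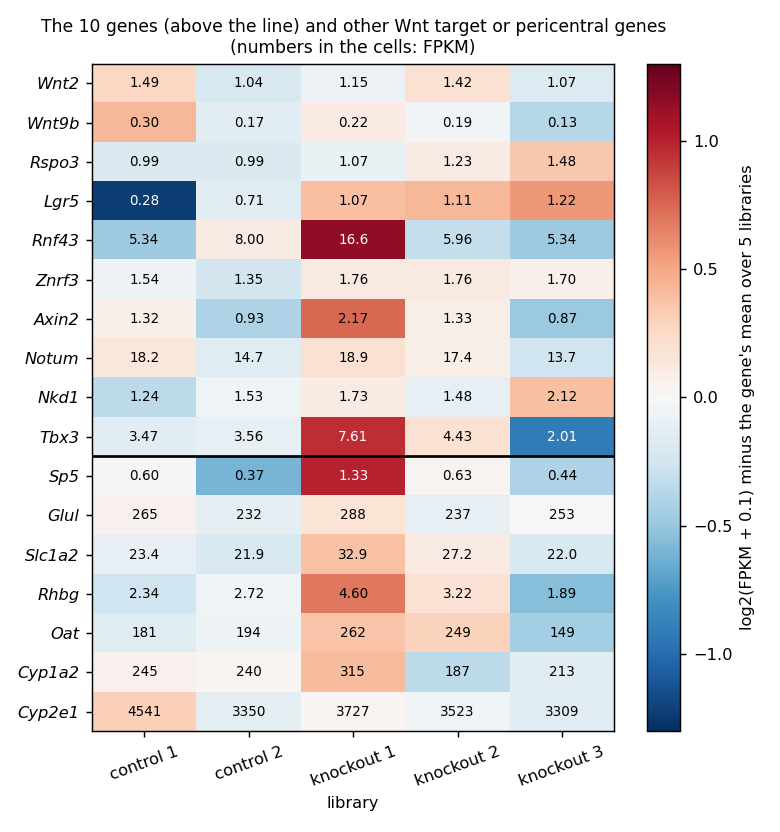
Colour gives log2(FPKM + 0.1) minus the mean of that gene over the 5 libraries, and the numbers in the cells are FPKM, for the 10 genes (above the line) and 7 further Wnt target or pericentral genes. Red cells of Rnf43, Axin2, Tbx3, Sp5 and Rhbg fall in the column of knockout 1, while Cyp2e1 is highest in control 1. The 7 further genes were picked and do not stand for their lists. All of them but Cyp2e1 were highest in knockout 1, against 3 of 8 general Wnt targets and 6 of 20 pericentral genes.

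The pericentral enzymes that β-catenin sustains gave no uniform difference. Glul, glutamine synthetase, had 265 and 232 FPKM for the controls, against 288, 237 and 253 FPKM for the knockouts, with overlapping groups and a difference of 0.059 (SE 0.12, 95% interval -0.23 to 0.34, limma adjusted p = 0.925). Oat, ornithine aminotransferase, had 181 and 194 FPKM in the control livers against 262, 249 and 149 FPKM in the knockout livers, on either side of the controls. Cyp2e1 stood at 4541 and 3350 FPKM for the controls, against 3727, 3523 and 3309 FPKM for the knockouts. Cyp1a2 stood at 245 and 240 FPKM in the control livers against 315, 187 and 213 FPKM in the knockout livers. Both of these cytochrome P450 genes overlapped between groups. Of the 20 pericentral genes listed, all tested, 8 had a difference above and 12 below 0, with a median of -0.12. Groups did not overlap for 5 of them, all lower in knockouts, where 6.23% of all genes tested were apart on the lower and 17.8% on the higher side. By limma 0 passed over all genes, with 1, Nr1i3, at an unadjusted p below 0.05. These 5 were Nr1i3, which encodes the nuclear receptor CAR, Cyp2c37, Cyp2c50, Cyp2c54 and Rgn. Nr1i3 had 152 and 154 FPKM for the controls, against 113, 120 and 81.2 FPKM for the knockouts, a difference of -0.57 (SE 0.17, limma adjusted p = 0.739). The 15 periportal genes, which mark the other end of the lobule, had 6 above and 9 below 0 and a median of -0.065. Groups did not overlap for 4 of these 15 on the lower and 2 on the higher side. The lower share was close to the 5 of 20 pericentral genes. At an unadjusted limma p below 0.05, 2 were lower and 1 higher. Over all genes tested 1.76% were lower and 4.85% higher at that p, shares that depended on scaling. G6pc1, the catalytic subunit of glucose-6-phosphatase, differed most, with 166.5 and 244.6 FPKM in the control livers against 89.0, 54.1 and 33.9 FPKM in the knockout livers, a difference of -1.88 (limma adjusted p = 0.682).

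The rest of the Wnt pathway was read from 5 further lists with 92 genes in all, of which 60 were tested. Of these 49 lay above and 11 below 0, with a median difference of 0.24, groups did not overlap for 16 higher and 1 lower, and 0 passed by limma over all genes while 8, all higher, had an unadjusted p below 0.05. Over all genes tested, 63.4% lay above 0, the groups were apart in 17.8% on the higher and 6.23% on the lower side, and 4.85% were higher at that p, an excess that depended on scaling. Among the 7 other ligands tested, Wnt5b was the most abundant in every liver, with 3.20 and 3.49 FPKM in the control livers against 4.78, 4.93 and 4.40 FPKM in the knockout livers. Its knockouts were all above its controls, with a difference of 0.48 (SE 0.15, limma adjusted p = 0.739). Controls included, Wnt5b exceeded both Wnt2 and Wnt9b per transcript length in 5 of 5 libraries. A further 9 of the 20 other ligands were listed at 0 in every library.

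Genes of Wnt secretion and reception lay above 0 in 12 of 13 cases, with a median of 0.24 as deposited and 0.15 with quantile normalization. Fzd8 had 2.86 and 2.92 FPKM for the controls, against 5.31, 4.24 and 7.40 FPKM for the knockouts, and Fzd7 had 1.94 and 2.07 FPKM in the control livers against 3.34, 3.29 and 5.91 FPKM in the knockout livers. In both Frizzled genes the controls nearly coincided and knockout 3 was highest, with differences of 0.91 (SE 0.24, limma adjusted p = 0.724) and 0.97 (SE 0.28, limma adjusted p = 0.739). Lgr4, the R-spondin receptor that was the more abundant of the pair, had 9.14 and 8.91 FPKM for the controls, against 11.69, 11.59 and 11.29 FPKM for the knockouts. It thus shared with Lgr5 knockouts that were close together and above both controls, at a difference of 0.35 (SE 0.11, 95% interval 0.085 to 0.61, limma adjusted p = 0.739). In every library Lgr4 stood above Lgr5.

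Inside the cell, Ctnnb1, which encodes β-catenin, had 81.1 and 82.6 FPKM in the control livers against 94.8, 89.0 and 89.5 FPKM in the knockout livers, a difference of 0.15 (SE 0.086, limma adjusted p = 0.765) with groups that did not overlap. Bcl9l, a coactivator of β-catenin, had 7.37 and 8.06 FPKM for the controls, against 9.91, 11.94 and 11.51 FPKM for the knockouts. Tcf7l2, the main TCF factor of liver, had 2.69 and 2.58 FPKM in the control livers against 3.18, 4.54 and 4.22 FPKM in the knockout livers. Neither passed the test over all genes (limma adjusted p = 0.724 and 0.739). Of the 28 intracellular genes tested, 23 lay above 0, and their median was 0.20 as deposited and 0.10 with quantile normalization. Among 8 general Wnt targets 7 lay above 0. Ccnd1, cyclin D1, had 4.74 and 4.49 FPKM for the controls, against 8.71, 6.27 and 12.64 FPKM for the knockouts, and Myc had 8.73 FPKM in knockout 3 against 0.99 to 2.01 FPKM in the other 4 livers. Of the 17 genes listed as Wnt antagonists, such as Dkk and Sfrp genes, 6 were tested, 4 of them above 0. Kremen1 was the only 1 of these 6 with groups that did not overlap. The list medians depended on the pseudocount: at a pseudocount of 1 that of other ligands was 0.047 against 0.24, that of antagonists 0.12 against 0.36 and that of general targets 0.17 against 0.41. The antagonist median was -0.027 without control 2, and that of other ligands was 0.10 with quantile normalization.

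**Figure D5:**
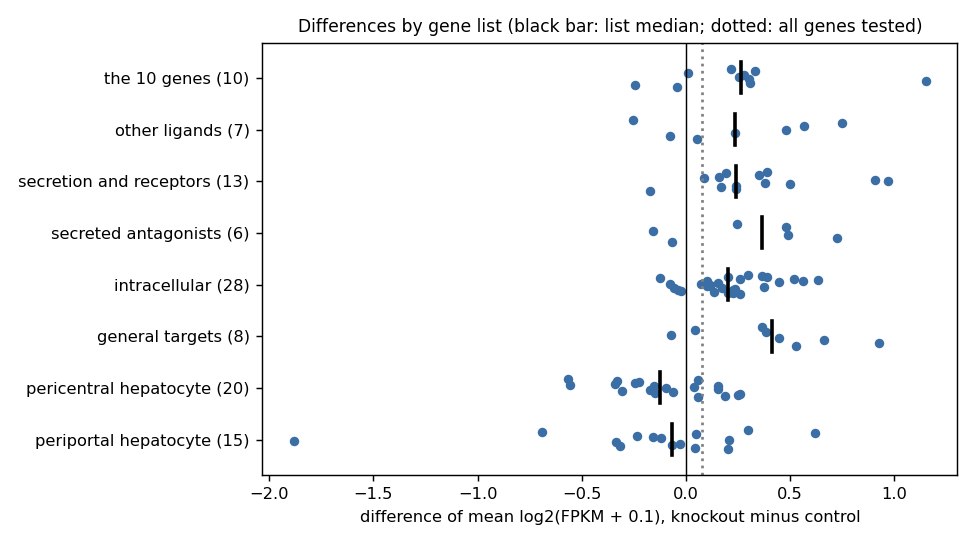
Differences (horizontal axis, mean log2(FPKM + 0.1), knockout minus control) of the tested genes of each list, 1 point per gene, with black bars at list medians and a dotted line at the median of all genes tested. The 5 lists of Wnt pathway genes have medians between 0.20 and 0.41 at the pseudocount of 0.1 plotted, and the pericentral and periportal lists lie at -0.12 and -0.065.

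Marker lists of liver cell types were read beside these values. Of 20 sinusoidal endothelial markers 11 lay above 0 (median 0.022, and -0.042 with median-of-ratios scaling), and their FPKM summed to 279 and 253 for the controls, against 313, 235 and 255 for the knockouts. Of the 7 tested markers of central vein endothelium 5 lay above 0, with a median of 0.045 that was -0.020 with median-of-ratios scaling, 0.35 with a filter of 1 FPKM, 0.23 without control 1 and 0.26 without knockout 2. Thbd, thrombomodulin, had 0.82 and 0.60 FPKM in the control livers against 1.04, 0.53 and 0.67 FPKM in the knockout livers, whereas Selp had 1.19 and 1.09 FPKM for the controls, against 1.72, 1.68 and 3.10 FPKM for the knockouts. Stellate cell markers lay above 0 in 3 of 12 (median -0.072), with sums of 249 and 260 FPKM in the control livers against 197, 241 and 286 FPKM in the knockout livers. Kupffer cell markers were above 0 in 10 of 10 (median 0.24, and -0.14 without control 1), with sums of 245 and 413 FPKM for the controls, against 337, 431 and 409 FPKM for the knockouts. Cholangiocyte markers were above 0 in 5 of 5 (median 0.65), with Spp1 and Sox9 apart on the higher side and sums of 29.7 and 40.7 FPKM for the controls, against 72.6, 51.2 and 55.3 FPKM for the knockouts. Leukocyte markers were above 0 in 6 of 7 (median 0.40) and erythroid markers in 5 of 5 (median 1.70, and 0.53 without knockout 1). Groups were also apart on the higher side for 3 of 20 sinusoidal, 2 of 7 central vein and 1 of 12 stellate markers. The same held for 0 of 10 Kupffer cell, 2 of 7 leukocyte and 2 of 5 erythroid markers. Over all genes tested 63.4% lay above 0, with a median of 0.079, and groups were apart on the higher side in 17.8%. Of these 7 lists only that of stellate cells had a median below 0 as deposited. The 8 hepatocyte markers had 3 above and 5 below 0, with a median of -0.027. The 6 markers of periportal endothelium had 3 above and 3 below 0, with a median of 0.11. In each of these lists 0 genes passed by limma over all genes. Their part in the levels of the 10 genes was not tested.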

How the data were processed

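The deposited values are FPKM per gene symbol, rounded to 2 decimals by the authors. HISAT2, StringTie, DESeq2 and mm10 are named in the submitters' processing notes, without roles. Strand use and versions are not given in the sources used here. The 2 deposited tables agreed in all 33589 rows, 220 of which repeat a symbol. In 1-exon genes between 33.6% and 41.4% of low values lay within 0.1 of whole multiples of a best step, so reads were not recovered.

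Genes averaging 0.1 FPKM or more, 14401 in number, were fitted as log2(FPKM + 0.1) by limma 3.58.1 (R 4.3.3, trended prior, genotype as the only term, 5 libraries, two-sided) with Benjamini-Hochberg adjustment over all genes and a threshold of 0.05. The low pseudocount and filter were chosen because 2 of the 10 genes average below 1 FPKM. Labels do not say that each library is a separate animal, so errors measure the spread between libraries, which may be technical. The 10 genes, the 16 lists (216 entries, 2 renamed by hand) and the rule for genes named were chosen with earlier results of these data known. The rule takes the 10 genes, up to 4 genes of smallest unadjusted p in each Wnt, pericentral and periportal list, and a preset of Glul, Cyp2e1, Cyp1a2, Oat, Ctnnb1, Lgr4, Lyve1, Stab2, Thbd and Heg1. Alb, Krt19, Myc, Rhbg, Rgn, Cd44, Spp1, Sox9, Slc1a2 (in a plot) and Selp were named after their values were seen. Not every gene that the rule takes is described. Gene positions are from GENCODE M21 (GRCm38, also called mm10).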

Additional observations from a re-analysis of the deposited data

How the results depend on the processing

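In 14 alternatives (136 fits of single genes of the 10), 0 gave a limma adjusted p below 0.05 (lowest 0.657), and 0 genes of the whole table passed in either direction. Rspo3, Lgr5, Znrf3 and Nkd1 kept their direction in every fit made. For Rspo3, Lgr5 and Znrf3, whose groups were apart, only median-of-ratios scaling and quantile normalization could have reversed it. Lgr5 and Wnt9b have no value with a filter of 1 FPKM. Of all genes, 423 were higher and 425 lower at an unadjusted p below 0.05 with median-of-ratios scaling, and 371 and 415 with quantile normalization, after which Lgr5 was the only 1 of the 10 without overlap (count 1). Notum turned to -0.054 with median-of-ratios scaling, -0.056 with quantile normalization and -0.0055 with library weights. With 1 library left out, differences ranged from -0.29 to 0.20 for Wnt2, -0.53 to 0.039 for Wnt9b, -0.21 to 0.60 for Rnf43, -0.038 to 0.58 for Axin2, -0.14 to 0.17 for Notum and -0.23 to 0.71 for Tbx3. The genes above 0 then numbered 4 (without knockout 1) to 10 (without control 1). Those higher without overlap numbered 3 to 5 (5 without knockout 3), and those lower without overlap 0 to 2 (Wnt2 and Wnt9b, without control 2). Groups are apart more easily with fewer libraries, and the share of all genes apart in these fits was not counted. The cause of these ranges was not tested.

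With the replicate block, which uses the numbers 1 and 2 that the groups share in the labels, 0 genes passed, 683 were higher and 357 lower at an unadjusted p below 0.05, and Wnt2 turned to 0.034. Knockout 3 is alone in its block and drops out of this estimate, so the differences of the 10 genes equal those without knockout 3. Across genes the deviations of same-numbered libraries correlated at 0.137 and 0.102. The deviations of 2 controls from their mean mirror each other, so these 2 values are not independent. There are only 2 such pairs, and the labels tie them to no litter or batch. With 2 controls, the lone control left in some of these fits is assumed to vary like the knockouts.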
